A study of Sus scrofa with 27 samples.

Results

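The transcript change of each lung over 12h of ex vivo lung perfusion was compared between 4 lungs perfused with dialysis (pediatric dialysis, PD; pigs 2, 3, 4 and 5) and 5 lungs perfused with regular replacement of perfusate (gold standard, GS; pigs 9, 17, 44, 55 and 77). The libraries were the biopsies taken before perfusion (0h) and at 12h, 18 libraries of the 27 of the series, and 17466 genes had enough counts to be tested. The difference in change is the mean change of the PD pigs minus the mean change of the GS pigs. It equals the gap between the groups at 12h minus the gap that was already there at 0h. The share at 0h is the part of the difference that comes from the first biopsy. For many of the named genes the gaps or this share are given. Where only a difference is given, it does not tell which group had the higher level at 12h.

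All lungs came from Large-White pigs, were retrieved after cardiac arrest, kept cold, and then perfused and ventilated without blood on the Toronto circuit with Steen solution that contained methylprednisolone, cefuroxime and heparin and passed a leukocyte filter. In GS part of the solution was exchanged at fixed intervals. In PD a small dialyzer ran continuously on the circuit, so the comparison is of dialysis with replacement and not of dialysis with no treatment. The PD lungs had been part of an earlier study and the GS lungs had not, and RNA was extracted by 1 of 2 methods that the sources do not assign to samples. An isolated lung keeps its own resident cells and the blood cells that the flush leaves behind, and biopsies were sequenced in bulk, so that fewer cells of a type and less RNA per cell cannot be told apart.

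Perfused donor lungs are known to start an innate response as they warm and are ventilated: sensors of damage drive NF-kB, which turns on early cytokines and chemokines, and interferons drive a later program through IRF and other factors. Macrophages, endothelium and epithelium all take part. A dialyzer exchanges small solutes such as salts, glucose and acids across its membrane.

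Total counts on genes were 14650700 to 20414838 in PD and 26871741 to 67522703 in GS, so no PD library had the depth of any GS library, and depth and any shared handling of a group cannot be told apart from the group. Among the PD libraries, that of pig 2 at 12h stood apart. Its mitochondrial share was 1.65%, against 11% at 0h in the same pig and 5.95% to 8.84% in the other PD lungs at 12h, and it had the fewest detected genes (18979). Genes with under 1000 bases of exons moved by a median of 1.19 log2 in this pig and those with over 5000 bases by −0.61, while the same medians were −0.57 and 0.17 in PD pig 3, −0.55 and 0.33 in PD pig 4, −0.14 and 0.08 in PD pig 5, and between −0.06 and 0.18 and between −0.16 and 0.07 in GS. The 0h library of PD pig 4 also stood apart, with 3.75% of its counts on long noncoding RNA against 1.1% to 2.31% in the other PD lungs at 0h. The main counts and the list medians that PD pig 2 moved most are therefore given with and without that pig. Fits at equal depth and with the trend of exon length and GC content removed were run as alternatives. Whether length or depth caused the differences was not tested.

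**Figure D1:**
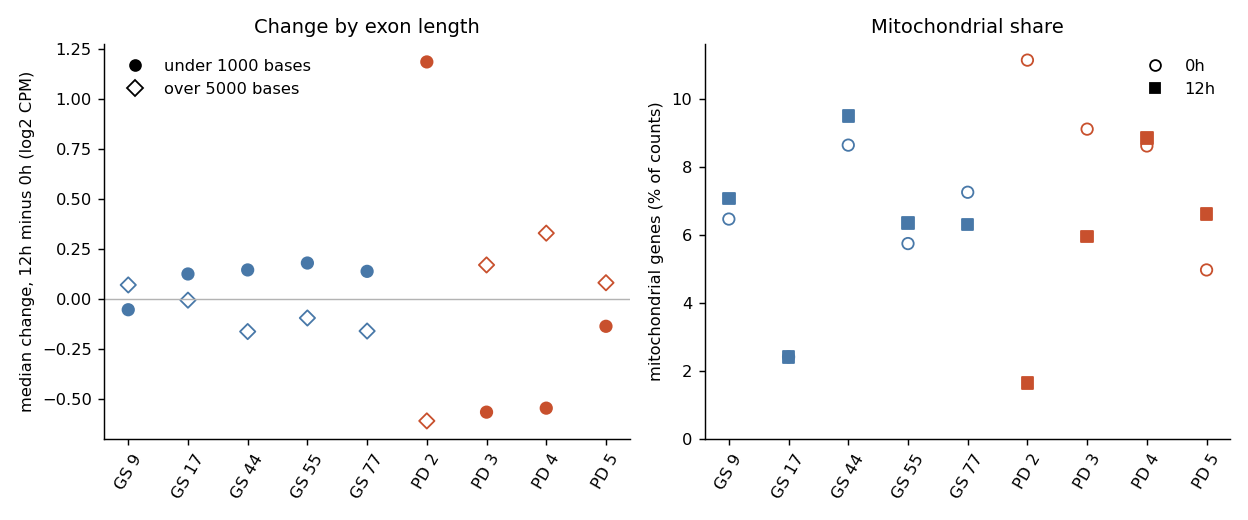
Signs of library composition in the 9 pigs. Left, median change from 0h to 12h (log2 CPM) of genes with exons under 1000 bases (filled circles) and over 5000 bases (open diamonds); right, mitochondrial share of counts (%) at 0h (open circles) and 12h (filled squares), with GS in blue and PD in red. PD pig 2 has medians of 1.19 and −0.61 and a mitochondrial share that went from 11% to 1.65%, while PD pigs 3, 4 and 5 have the opposite order of short and long genes.

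With all 9 pigs, no gene passed the test of the difference in change (edgeR quasi-likelihood test with the pig as a block, Benjamini-Hochberg adjusted p under 0.05; 0 of 17466). At an unadjusted p under 0.05 there were 744 genes (4.26%), of which 439 had a higher change in PD (2.51%) and 305 a lower one (1.75%). DESeq2 called 21 genes, 18 of them higher. By smallest adjusted p the higher genes began with ACOD1, BATF2, ENC1, TRIM21, ESRRG and ANKRD66. They also held ARHGAP20, TOE1, SCGB1A1, CXCL10, PDCD11, GAR1, IL1B, CCL4 and DKC1, and TMEM37 was among the lower. A higher change in PD was found for 8413 of the 17466 genes. The changes of the PD and GS pigs did not overlap for 378 genes (2.16%), 218 higher (1.25%) and 160 lower (0.916%). Without PD pig 2, edgeR called 4 of 18100 genes (0.0221%), all higher in PD: ACOD1, BATF2, CXCL10 and ENSSSCG00000024759, a gene without a symbol (fitted difference 3.31 log2, SE 0.47, adjusted p 0.041). In that fit 4074 genes had an unadjusted p under 0.05 (22.5%) and 3048 did not overlap (16.8%; 8.36% higher and 8.48% lower), against which the counts without PD pig 2 have to be read.

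The levels of the groups differed at both times. At 0h, before the lungs had been perfused, 6773 genes were called between PD and GS (38.8%; 20.2% higher and 18.5% lower in PD), and 3297 at 12h (18.9%; 10% and 8.86%). Between 0h and 12h, 1300 genes changed in GS (4.34% up and 3.1% down) and 2636 in PD (8.07% up and 7.03% down). These counts depended on single pigs: the GS count was 3, 7 and 10 without GS pigs 55, 17 and 44 and 3722 without PD pig 2, and the PD count was 542 without PD pig 5 and 6660 without PD pig 2. For the 218 genes without overlap and higher in PD, the gap at 0h was the greater part of the difference in 108 (49.5%, exact binomial 95% interval 42.7 to 56.4), and the median share at 0h was 48.7%. For the 160 lower genes it was so in 49 (30.6%, interval 23.6 to 38.4), with a median share of 7.69%. Over all genes tested the figure was 49.8%. The order of higher and lower genes depended on the scale, since with rlog values in place of log2 CPM the figures were 39.4% for higher and 48.3% for lower genes. Without PD pig 2 they were 62.4% of 1514 higher genes (median share 77.3%) and 50.7% of 1534 lower genes (median share 51%), and 50% over all genes. Those intervals cover the counting of genes only, and genes are not independent. In 52 of the 218 and 30 of the 160 genes the share was over 100%, so the groups lay closer at 12h than at 0h, and in 69 and 71 it was negative, so a gap of the same direction at 0h had widened.

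The gene with the smallest p was ACOD1 (ENSSSCG00000009469, Sscrofa11.1 chr11:49077492-49088345, plus strand), which encodes the mitochondrial enzyme that makes itaconate in activated macrophages. At 0h its normalised CPM (counts scaled to the library size after TMM normalisation) was 3.23, 7.61, 4.08 and 3.02 in PD pigs 2, 3, 4 and 5 and 2.56 to 8.51 in GS with a median of 4.07. At 12h it was 28.5, 161, 318 and 112 in PD and 14, 4.64, 2.95, 14.9 and 2.35 in GS pigs 9, 17, 44, 55 and 77. The groups thus overlapped before perfusion and were apart at 12h, where the lowest PD lung was pig 2. The log2 change was 4.76 ± 1.33 in PD (SD, n = 4) and 0.39 ± 1.08 in GS (SD, n = 5), a 20.6-fold difference, of which 2.05% lay at 0h. The fitted difference was 4.39 log2 (SE 0.72, p 5.7e-05, edgeR adjusted p 0.609), and 4.90 (SE 0.63, adjusted p 0.033) without PD pig 2.

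BATF2 (ENSSSCG00000023178, chr2:7180258-7188990, plus strand), an interferon-induced partner of the AP-1 and IRF factors, started at 13.3, 9.84, 19.9 and 9.32 CPM in PD pigs 2 to 5 and at 10.4 to 17.4 CPM in GS. At 12h it was 22.1, 37.6, 58.9 and 47.4 CPM in PD and 10.4, 4.42, 5.55, 7.94 and 12.8 CPM in the 5 GS lungs. Every PD pig went up and every GS pig went down. Its log2 change was 1.64 ± 0.69 in PD (SD, n = 4) and −0.79 ± 0.41 in GS (SD, n = 5), and 3.52% of the difference lay at 0h. The fitted difference was 2.44 log2 (SE 0.41, edgeR adjusted p 0.609), and 2.74 (SE 0.35, adjusted p 0.033) without PD pig 2.

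CXCL10 (ENSSSCG00000032474, chr8:71693339-71695948, minus strand), a chemokine that draws activated T cells through CXCR3, was the most abundant of the 3. It stood at 124, 254, 191 and 56.1 CPM in PD pigs 2 to 5 at 0h and at 230.4, 3761, 10001 and 2371 CPM at 12h. In GS it was 22.9 to 113 CPM at 0h and 94.1 to 110.2 CPM at 12h. The gain in PD was carried by pigs 3, 4 and 5, with log2 changes of 3.89, 5.71 and 5.40, while pig 2 changed by 0.90 and lay within the GS range of −0.24 to 2.2. The fitted difference was 3.63 log2 with all pigs (SE 0.98, edgeR adjusted p 1) and 4.50 without PD pig 2 (SE 0.60, adjusted p 0.0335). PD also had more CXCL10 at 0h by 0.95 log2, so the gap widened from 0h to 12h and the share at 0h was −27.8%. For the change from 0h to 6h, which uses the same 0h libraries, the differences were 2.07 for ACOD1, 0.96 for BATF2 and 1.86 for CXCL10.

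**Figure D2:**
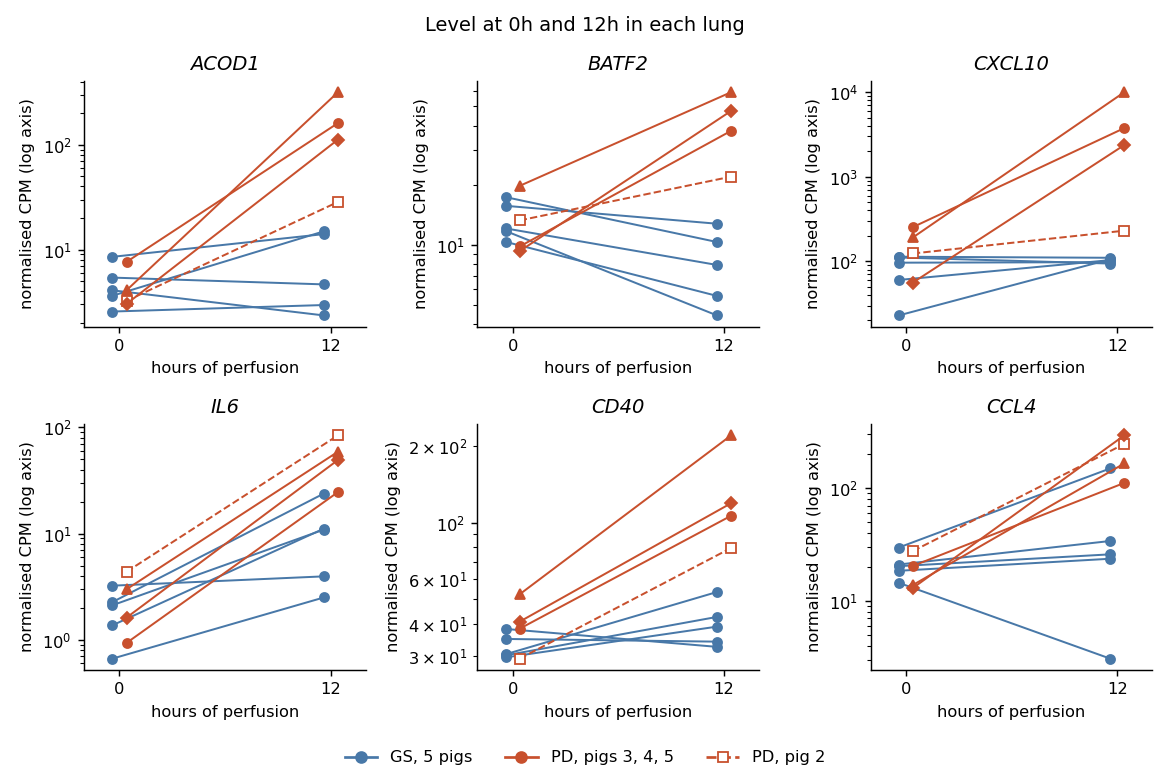
Normalised CPM (log axis) of 6 genes at 0h and 12h, with 1 line per lung, GS in blue and PD in red, and PD pig 2 dashed with open squares. At 0h the red and blue points intermix for ACOD1, BATF2, IL6 and CCL4; at 12h all PD lungs lie above all GS lungs for ACOD1, BATF2, CXCL10, IL6 and CD40, and the GS lung nearest to PD for CCL4 (149.9 CPM) lies above the lowest PD lung (112 CPM).

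The starts of these genes and of IL6 are shown because interferon and NF-kB factors are known to act near gene starts. Each covers 250 bases before and 50 after the RefSeq gene start on Sscrofa11.1, which is not always the start that the count table uses. For BATF2 and ACOD1 the window ends before the gene of the count table begins, at 7180258 and 49077492. Capitals mark matches on either strand to GAAA and GAAA with 2 bases of any kind between (like the interferon-stimulated response element) and GGGA and TTCC with 2 bases between (like the NF-kB site).
CXCL10, chr8:71695899-71696198, minus strand: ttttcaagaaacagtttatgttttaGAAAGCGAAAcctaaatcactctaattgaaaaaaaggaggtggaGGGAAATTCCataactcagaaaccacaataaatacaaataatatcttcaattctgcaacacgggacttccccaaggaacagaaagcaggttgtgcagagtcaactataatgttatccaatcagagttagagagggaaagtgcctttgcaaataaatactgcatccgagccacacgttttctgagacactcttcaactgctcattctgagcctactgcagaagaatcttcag
BATF2, chr2:7179769-7180068, plus strand: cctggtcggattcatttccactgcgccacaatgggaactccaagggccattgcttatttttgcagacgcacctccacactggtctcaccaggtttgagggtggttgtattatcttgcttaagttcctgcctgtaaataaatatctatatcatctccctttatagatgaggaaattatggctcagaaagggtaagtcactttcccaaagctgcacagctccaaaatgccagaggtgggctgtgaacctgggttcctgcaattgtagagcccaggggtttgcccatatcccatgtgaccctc
ACOD1, chr11:49076902-49077201, plus strand: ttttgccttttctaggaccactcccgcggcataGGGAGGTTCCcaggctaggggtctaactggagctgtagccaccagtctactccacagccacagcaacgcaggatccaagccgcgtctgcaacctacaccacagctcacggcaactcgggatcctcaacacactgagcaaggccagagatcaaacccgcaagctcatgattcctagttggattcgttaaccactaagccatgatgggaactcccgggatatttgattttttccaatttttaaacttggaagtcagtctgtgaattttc
IL6, chr9:91506171-91506470, plus strand: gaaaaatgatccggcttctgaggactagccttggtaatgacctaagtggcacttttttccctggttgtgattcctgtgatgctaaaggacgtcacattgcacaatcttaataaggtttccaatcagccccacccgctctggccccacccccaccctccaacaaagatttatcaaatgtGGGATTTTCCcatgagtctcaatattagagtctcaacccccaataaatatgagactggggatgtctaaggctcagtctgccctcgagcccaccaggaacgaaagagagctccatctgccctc

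The window of CXCL10 holds the interferon-type letters from 225 bases before the start and the NF-kB-type letters from 181 bases before it. ACOD1 holds the NF-kB-type letters from 217 and IL6 from 72 bases before the RefSeq start, and BATF2 has neither in this window. Of 28242 RefSeq windows, 3.98% held the interferon-type letters and 3.82% the NF-kB-type. Among the 32 interferon genes described below, 13 windows (40.6%) held the interferon-type letters, and among 52 ribosome biogenesis genes 2 did (3.85%). A match describes the letters only.

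A set of 10 inflammation genes was drawn from genes and cytokines that the study discusses, not all of them at 12h or as transcripts. Their changes did not overlap between the groups for 6, all higher in PD (1.25% of all genes): IL6, CCL4, CD40, IRF1, LIF and CIITA. For these 10 the mean change was also compared by an exact two-sided permutation of the pigs over all 126 splits, whose smallest possible p is 0.00794. None passed the edgeR test over all genes (adjusted p 1 for each), while DESeq2 called IL1B (adjusted p 0.0208) and CCL4 (0.0273). Since part of the set was chosen from these samples, it is not independent evidence of a direction.

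IL6 (chr9:91506340-91511263), the acute-phase cytokine, was at 4.37, 0.93, 2.99 and 1.61 CPM at 0h in PD pigs 2 to 5 and at 84.1, 24.6, 59.0 and 49.3 CPM at 12h. In GS pigs 9, 17, 44, 55 and 77 it went from 3.23, 0.66, 2.11, 2.26 and 1.37 CPM to 3.95, 2.50, 10.9, 23.8 and 11 CPM. It rose in both groups (edgeR adjusted p 0.00122 in PD and 0.0151 in GS), least in GS pig 9, whose change of 0.29 log2 compares with 1.89 to 3.39 in the other GS lungs. The difference in change was 2.36 log2 (exact permutation p 0.0159), the gap at 0h was 0.31 and the gap at 12h 2.67, so the difference lay at 12h.

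CCL4 (chr12:39478885-39557358), a chemokine for monocytes and T cells, changed by 3.16, 2.45, 3.58 and 4.50 log2 in PD pigs 2 to 5 and by −2.23 to 2.33 in GS with a median of 0.35. Its difference of 3.12 (exact permutation p 0.0159) lay at 12h, with 5.8% at 0h. The span of CCL4 contains CCL3L1 on the other strand, and the strand setting of the counting is not given, so reads may be shared; CCL3L1 had a difference of 2.63 with overlap, and GS pig 55 at 2.74 was far from the other GS lungs.

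CD40 (chr17:48286029-48298528), the co-stimulatory receptor of antigen-presenting cells and endothelium, stood at 29.2, 38.3, 52.3 and 40.8 CPM in PD at 0h and at 79.6, 107, 221 and 119 CPM at 12h. In GS the range was 29.5 to 38.2 CPM at 0h and 32.5 to 53.4 CPM at 12h. All 4 PD lungs were above all 5 GS lungs at 12h (exact permutation p of the change 0.00794). The difference was 1.35 log2 and the gaps at 0h and 12h were 0.28 and 1.62.

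IRF1 (chr2:134776134-134783646), a transcription factor induced by interferon-γ and NF-kB, rose from 130 to 178 CPM at 0h to between 784 and 1341 CPM at 12h in PD. In GS it went from 116 to 168 CPM to 110, 220, 451, 559 and 443 CPM in pigs 9, 17, 44, 55 and 77, and GS pig 9 was the only lung in which it went down. The difference in change was 1.67 log2 (exact permutation p 0.0238), with a gap of 0.14 at 0h and 1.82 at 12h.

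LIF and CIITA differed in another way. LIF (chr14:47221560-47238749), a cytokine of the IL-6 family, changed by 1.84 to 3.31 log2 in PD and 0.05 to 1.67 in GS, a difference of 1.72 (exact permutation p 0.00794), but 68.4% of it lay in lower PD levels at 0h. At 12h PD had 9.41 to 15.3 CPM and GS 4.01 to 12 CPM, and these ranges overlap. CIITA (chr3:32172214-32230780), the master regulator of MHC class II genes, changed by −0.31, 1.19, 0.30 and 0.61 in PD pigs 2 to 5 and by −0.69 to −0.32 in GS, and 56.1% of the difference of 0.97 (exact permutation p 0.00794) lay at 0h. The ranges of CIITA are nearly in contact, and PD pig 2 decides how far apart the groups are: without it the difference was 1.23.

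IL1B, the inflammasome cytokine, changed by 2.51, 2.11, 3.14 and 4.63 in PD and by −2.20 to 2.39 in GS, so the groups overlapped at GS pig 55. Its difference was the greatest of the 10 (3.63, exact permutation p 0.0238), and 36.2% of it was a lower level in PD at 0h, where PD had 0.68 to 2.59 CPM and GS 2.57 to 6.70 CPM. TNF differed by 0.94 (exact permutation p 0.381), CXCL8, the gene of IL-8, by 0.41 (p 0.738) and IL10 by −0.14 (p 0.833). For the last 3 the ranges overlapped, and the SD of CXCL8 was 2.55 in PD and 1.61 in GS. The direction of CXCL8 and of IL10 turned when some single pigs were left out.

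**Figure D3:**
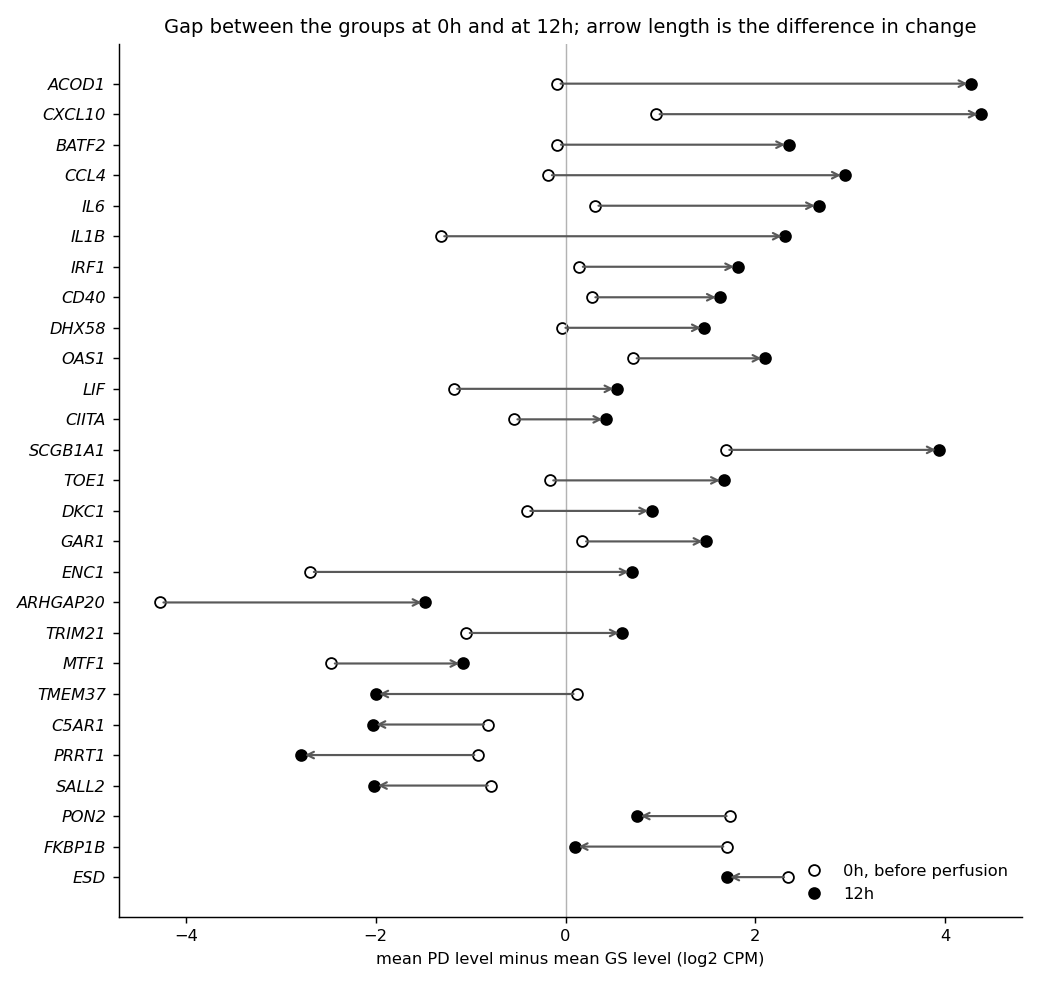
Mean PD level minus mean GS level (log2 CPM) at 0h (open circles) and at 12h (filled circles) for 27 genes of the text; the arrow from 0h to 12h is the difference in change. ACOD1, BATF2, CCL4, IL6, IRF1 and DHX58 start near 0, whereas ENC1, ARHGAP20, TRIM21 and MTF1 start 1.05 to 4.27 below 0, and PON2, FKBP1B and ESD start 1.70 to 2.34 above it.

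Gene lists are described by how many members had a higher or lower change in PD than in GS, and by the median difference in change. Of 18 cytokines tested, 14 had a higher change in PD and 4 passed an unadjusted p under 0.05, all upward (IL6, IL1B, LIF and IL27; 2.51% of all genes passed upward and 1.75% downward, and these shares apply to each list), with a median difference of 0.94 log2 against −0.03 over all genes tested. IL27, a cytokine of activated phagocytes, differed by 2.18. Of 18 chemokines 15 were higher, 3 passed upward (CCL4, CXCL10 and CCL3L1) and 1 downward (CCL28, a mucosal chemokine, by −1.30), beside 2.51% and 1.75% of all genes, with a median of 1.02. Among 16 NF-kB subunits and feedback inhibitors 15 were higher (median 0.70) and 2 passed, TNIP1 by 1.04 and TNIP3 by 2.05, both of which encode proteins that restrain NF-kB. The medians per pig for the NF-kB genes overlapped, from −0.11 to 1.76 in GS and 1.25 to 2.34 in PD. Of 19 endothelial activation and adhesion genes 11 were higher, the median was 0.16 and VCAM1, the adhesion receptor for leukocytes, was the 1 member that passed (1.46), on top of a gap of 1.61 at 0h. Without PD pig 2 that median was 0.41, and 6 members passed upward and 0 downward, against 11.3% and 11.2% of all genes. With the trend of exon length and GC content removed, the median was 0.04 with all pigs and 0.54 without PD pig 2. In the latter fit 7 members passed upward and 0 downward, against 1930 and 1764 of all 17466 genes.

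The interferon genes carried a difference in several members. Of 32 interferon regulatory factors and interferon-stimulated genes, 25 were higher and 10 passed an unadjusted p under 0.05, all upward, against 2.51% of all genes. The 10 were OAS1, DHX58, IRF1, GBP1, IFIT1, MX1, ISG15, IFIH1, DDX58 and TAP1. None passed the adjusted test of edgeR or DESeq2. The medians per pig overlapped, from −0.552 to 0.295 in GS and from 0.254 to 0.907 in PD. The median difference was 0.52 log2, with 0.24 at 0h and 0.88 at 12h, and it was 0.80 without PD pig 2, where 16 members passed upward and 4 downward against 11.3% and 11.2% of all genes.

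DHX58, which encodes the RNA sensor LGP2, changed by 1.03, 1.2, 0.06 and 0.05 in PD and by −1.82, −0.51, −0.24, −0.82 and −1.19 in GS pigs 17, 44, 55, 77 and 9. The groups pointed in opposite directions, but 2 of the PD lungs hardly moved. Nearly all of the difference of 1.5 lay at 12h (2.56% at 0h).

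OAS1, which senses double-stranded RNA for RNase L, changed by 0.78 to 1.83 in PD and −0.53 to 0.66 in GS, a difference of 1.39 that added to a gap of 0.71 at 0h. MX1, an antiviral GTPase, had a like difference of 1.45, but 97.5% of it was a lower PD level at 0h and at 12h the groups were 0.04 apart. ISG15, a ubiquitin-like modifier, differed by 1.49 on top of a gap of 1.49 at 0h. TRIM21, the cytosolic antibody receptor, which is not in this list, was without overlap (1.14 to 1.88 in PD, −0.63 to 0.36 in GS), with 63.6% of its difference at 0h. OAS1, MX1 and ISG15 thus had like differences in change and different starting gaps.

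Of 15 MHC class II and antigen presentation genes 8 were higher, the median was 0.00107, and 3 passed upward (2.51% of all genes): CD40, CIITA and CD274, the checkpoint ligand PD-L1 (1.48). The median was −0.14 without PD pig 2.

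Genes of ribosome biogenesis and RNA processing, which make and assemble ribosomes in the nucleolus, differed in 1 direction in nearly all members. Of 52 tested, 51 had a higher change in PD, 17 passed an unadjusted p under 0.05 upward and none downward (2.51% and 1.75% of all genes), and 11 did not overlap between the groups, all higher (1.25%). None passed the adjusted edgeR test, and DESeq2 called DKC1 (adjusted p 0.0357) and GAR1 (0.0208). The 1 lower gene was WDR43, with −2.49 at a mean of −2.13 log2 CPM, close to the counting floor. The median change per pig was 0.94, 1.35, 2.04 and 1.68 in PD pigs 2, 3, 4 and 5 and 0.25 to 1.02 in GS, so that pig 2 lay within GS and the others above it.

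DKC1, the pseudouridine synthase of small nucleolar and telomerase RNPs, was at 31.4, 29.7, 32.9 and 33.4 CPM in PD at 0h and 272, 138, 168 and 236 CPM at 12h. In GS it went from 26.8 to 50.2 CPM to 75.4 to 138 CPM. It rose in both groups (edgeR adjusted p 0.00104 and 0.0107), with log2 changes of 2.63 ± 0.42 (SD, n = 4) and 1.31 ± 0.24 (SD, n = 5). Its RNP partner GAR1 differed by 1.30, from 1.41 in PD and 0.10 in GS.

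RRP12, an export factor of the small subunit (1.14), and NAT10, an RNA acetyltransferase (0.97), did not overlap either, nor did NOLC1, a nucleolar chaperone of snoRNPs, with 2.56 in PD and 1.41 in GS. PDCD11 and TOE1, an rRNA processing factor and an RNA deadenylase, are not in this list. They were among the 10 higher genes without overlap with the smallest p, with 1.39 and 1.83. The gap at 0h supplied 31.0% of the difference for DKC1, 9.11% for TOE1 and 83.8% for NAT10.

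The list median was 0.74 log2 at 12h, with median gaps of 0.18 at 0h and 0.97 at 12h. At 6h, for a change that uses the same 0h libraries and is therefore given side by side only, it was −0.20. Without PD pig 2 the median was 1.03, and with the trend of exon length and GC content removed it was 0.69. Without that pig 36 members passed upward and 0 downward, against 11.3% and 11.2% of all genes. Then 25 did not overlap, all higher, against 8.36% of all genes.

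Proteins of the mature ribosome showed another pattern. All 37 cytosolic ribosomal protein genes were called higher in PD at 0h (median gap 2.12; 20.2% of all genes), and 32 at 12h (median gap 1.87; 10%). Their difference in change had a median of −0.12 with all pigs and −0.61 without PD pig 2, where the change was 1.91 against −0.46 to 0.26 in the other PD pigs. Nuclear genes of oxidative phosphorylation were alike, with a gap of 1.48 at 0h and a median difference of −0.08, or −0.52 without PD pig 2. Without that pig 15 of 37 ribosomal protein genes and 14 of 40 oxidative phosphorylation genes passed downward and 0 upward (11.2% and 11.3% of all genes). Then 2 and 11 did not overlap, all lower, against 8.48% of all genes. With the trend of exon length and GC content also removed, 5 and 9 passed downward and 0 upward (1764 and 1930 of all 17466 genes).

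**Figure D4:**
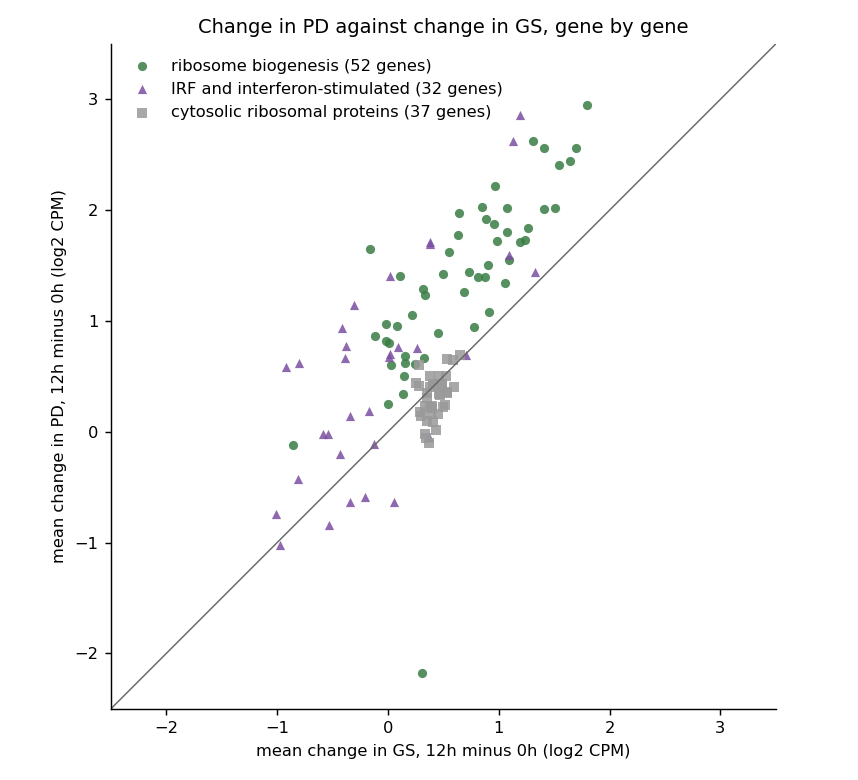
Mean change from 0h to 12h (log2 CPM) in GS (horizontal) and PD (vertical) for the genes of 3 lists; the line marks equal change. All but 1 of the 52 ribosome biogenesis genes (green circles) and 25 of 32 interferon genes (purple triangles) lie above the line, while the 37 ribosomal protein genes (grey squares) lie near it, with a median difference of −0.12.

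Metallothioneins and zinc transporters were higher in PD for 10 of 10 members, with a median of 0.95 (1.23 without PD pig 2). With all pigs 3 passed upward (MT1A, MT1D and MTF1), beside 2.51% of all genes and a higher change in 8413 of 17466. MT1A, which binds zinc and copper, had 2 to 13 counts at 0h and rose strongly in both groups, to 69.6, 13.8, 37.5 and 30.7 CPM in PD pigs 2 to 5 and 0.84 to 5.91 CPM in GS. With counts this low at 0h its change is imprecise, and PD was already higher there by 1.90 log2; the 12h gap was 4.19. MTF1, the zinc-sensing factor that turns these genes on, differed by 1.39 but started 2.47 lower in PD. Of 20 amino acid response genes driven by ATF4, 17 were higher (median 0.51, or 0.79 without PD pig 2) and 2 passed: SLC3A2, the heavy chain of amino acid transporters (1.12), and CHAC1, which degrades glutathione (2.87), for which PD pig 4 had 1 count at 0h and a change of 8.19 beside 2.92 to 3.97 in the other PD lungs.

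Other lists showed smaller or mixed differences. DNAJB9, a chaperone of the endoplasmic reticulum, differed by 1.09, while the 18 unfolded protein response genes had a median of 0.06. PDK4, which blocks entry of pyruvate into the mitochondrion, changed by −0.53 ± 0.66 in PD (SD, n = 4) and 1.21 ± 1.2 in GS (SD, n = 5), a difference of −1.75 with overlap, and PFKFB3, an activator of glycolysis, by 0.92, of which 137% lay at 0h. The 30 glycolysis and hypoxia genes had a median of 0.08 (0.15 without PD pig 2) and the 18 glucocorticoid response genes 0.09. Among 23 immediate early genes FOSL2 (1.38) and DUSP2 (1.75) passed upward and KLF2 downward (−0.84), and the list lay 1.17 lower in PD at 0h. FOSL2 was 7.1-fold lower in PD than in GS at 0h and still 2.7-fold lower at 12h. Toll-like receptor genes (median 0.22), coagulation genes (0.44), proteasome subunits (0.26), heat shock chaperones (0.14), cholesterol genes (−0.04), clock genes (−0.15), ion and water transport genes (0.27), NRF2 targets (0.04) and cell cycle genes (0.09) had at most 1 member past an unadjusted p under 0.05. Without PD pig 2 the medians were 0.53 for ion and water transport, 0.51 for coagulation, 0.43 for the proteasome and 0.40 for cell cycle. They were 0.34 for heat shock chaperones, 0.255 for toll-like receptor genes and −0.01 for cholesterol genes. The clock and NRF2 lists turned to 0.01 and −0.05. In that fit 6 of 22 ion and water transport genes, 5 of 13 coagulation genes and 4 of 20 toll-like receptor genes passed upward (11.3% of all genes). Downward the counts were 1, 0 and 0 (11.2%). The other lists of this group had 1 to 4 upward and 0 to 3 downward. The 13 IL-6 family receptors and STAT3 feedback genes had none with all pigs (median 0.42), and 5 upward and 1 downward without PD pig 2, among them LIFR (2.34) and STAT3 (1.33). Without that pig, 64.1% of the LIFR difference and 57.2% of the STAT3 difference lay at 0h.

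**Figure D5:**
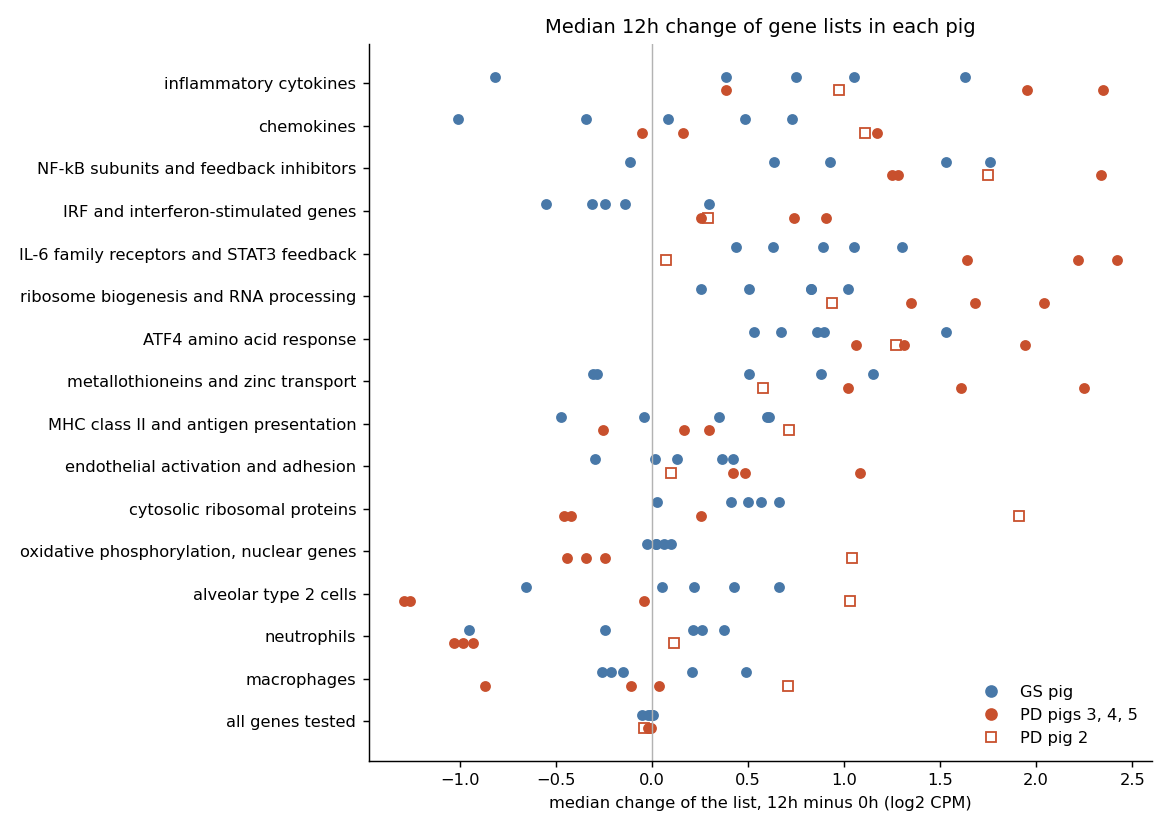
Median change from 0h to 12h (log2 CPM) of each list in each pig, GS in blue, PD in red, and PD pig 2 as an open square. For ribosome biogenesis PD pigs 3, 4 and 5 (1.35 to 2.04) lie above the 5 GS pigs (0.25 to 1.02); for ribosomal proteins, oxidative phosphorylation and alveolar type 2 markers PD pig 2 lies far to the right of the other PD pigs.

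Of the 10 genes chosen among the lower ones, none passed the adjusted edgeR test, and DESeq2 called TMEM37 (adjusted p 0.0264). TMEM37, a calcium channel-like membrane protein, was at 8.95, 12.7, 11.8 and 15.6 CPM in PD pigs 2 to 5 at 0h and 1.81, 1.19, 1.31 and 2.32 CPM at 12h. In GS it was 6.95 to 17.2 CPM at 0h and 4.97, 7.55, 21.6, 3.04 and 4.54 CPM at 12h. The 4 PD lungs thus lay below all GS lungs at 12h after sharing their range at 0h. It fell in PD (edgeR adjusted p 0.00266), and the difference of −2.12 log2 lay at 12h (5.78% at 0h).

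C5AR1, the receptor for the complement fragment C5a on neutrophils and macrophages, changed by −1.27, −1.92, −1.42 and −2.39 in PD and by −1.21 to −0.04 in GS. At 12h it was 13.0 to 20.2 CPM in PD and 46.2 to 102 CPM in GS. PD had started lower by 0.82, and the gap widened to 2.03 below GS. SALL2, a zinc finger factor (−1.23), SLC12A9, a cation-chloride cotransporter relative (−1.25), and PRRT1, a membrane protein (−1.86), likewise began lower in PD by 0.65 to 0.92 and ended lower by 1.90 to 2.78.

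MYRIP, which links secretory granules to myosin (−1.27), TRIM41, a ubiquitin ligase (−1.09), and ZNF251, a zinc finger gene (−1.03), had gaps at 0h between −0.18 and 0.34. For PON2, a lactonase against lipid peroxidation, the share at 0h was 177%: it was 122 to 167 CPM in PD and 33.3 to 54.8 CPM in GS at 0h, and 61.1 to 73.2 and 31.7 to 54.9 CPM at 12h. FKBP1B, which stabilises calcium release channels, had 106%, so that a PD excess of 1.70 at 0h had become 0.10 at 12h.

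The extremes of this share show the same split. ESD, a formaldehyde-detoxifying esterase (364%), MSMB, a secretory protein (331%), and ZNF777, a zinc finger gene (357%), had differences in change of −0.64, −0.69 and 0.52 beside gaps of 2.34, 2.27 and −1.87 at 0h. RNF128, a ubiquitin ligase of T-cell anergy (−1), and GAB3, an adaptor of macrophage signalling (−0.98), had −0.0186% and 8.25% at 0h. ENC1, an actin-binding adaptor, was at 0.63 to 6.47 CPM in PD and 12.2 to 24.5 CPM in GS at 0h, and at 11.6 to 35.8 and 8.44 to 18.9 CPM at 12h. Its difference of 3.39 was 79.3% at 0h. ARHGAP20 went up in every PD pig and down in every GS pig (2.80), from a level 4.27 log2 below GS at 0h, and remained 1.48 below it at 12h. ANKRD66, a gene of little known function, also went opposite ways in all pigs (2.01), with 69.5% at 0h.

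Of the marker genes of lung cell types, none passed the adjusted edgeR test, and DESeq2 called SCGB1A1 (adjusted p 0.0138). At an unadjusted p under 0.05 there were 5, a share close to the 4.26% of all genes. They were SCGB1A1, BPIFA1 and PDGFRA upward, and MRC1 and BLK downward. PDGFRA was 2.98-fold lower in PD than in GS at 0h and still 1.49-fold lower at 12h. Secretory and mucous airway markers were higher for 6 of 7 genes (median 0.92) and 2 passed (2.51% of all genes). Without PD pig 2 the median was 0.37, and the list's median change was 2.23, 0.70, −2.53 and 0.77 in PD pigs 2 to 5. SCGB1A1, the club cell secretory protein, was at 852, 617, 569 and 1075 CPM in PD at 0h and 1819, 401, 1891 and 1820 CPM at 12h. In GS it varied from 41.4 to 979 CPM at 0h and from 15.1 to 324 CPM at 12h, and went down in all 5 lungs. Changes did not overlap (−0.62 to 1.73 in PD, −1.91 to −0.72 in GS), PD was higher by 1.69 at 0h, and the difference was 2.25. BPIFA1, another airway secretory protein, differed by 2.87, and the biopsy's share of airway was not measured.

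Alveolar type 2 markers were lower for 9 of 9 genes (median −0.59), none past an unadjusted p under 0.05. Without PD pig 2 the median was −0.84, and 3 passed downward and 0 upward (11.2% and 11.3% of all genes). The list was led at 0h by SFTPC, the surfactant protein C gene, with 18781 to 74908 CPM in PD and 2750 to 4514 CPM in GS. SFTPC was at 1742 CPM or more in all 18 libraries. Neutrophil markers were lower for 6 of 6 (median −0.61, or −0.76 without PD pig 2), also with none past the test with all pigs. MPO, CXCR1, S100A9 and FPR1 were not among the genes tested. The summed CPM of the 6 went from 637 to 1280 at 0h to 271 to 1606 at 12h in PD, and from 177 to 469 to 173 to 518 in GS. Erythroid markers were lower for 5 of 5 (median −0.86, or −2.49 without PD pig 2), with HBB at 49.7 to 235 CPM in PD and 0.36 to 8.71 CPM in GS at 0h, and at 374 CPM in PD pig 2 but 7.62 to 11 CPM in the other PD lungs at 12h. Macrophage markers (7 of 10 lower, median −0.17), of which MRC1 passed (−0.88), T and NK cell markers (median −0.04), B cell markers (−0.83), endothelial markers (0.09), alveolar type 1 (−0.21), fibroblast (−0.63), smooth muscle (0.25), ciliated (0.45), platelet (−0.42) and mast cell markers (−0.57) had at most 1 member past an unadjusted p under 0.05 in either direction. Without PD pig 2 the alveolar type 1 median turned to 0.35, the ciliated median was 0.06, the endothelial 0.22 and the macrophage −0.35. WT1 was the 1 mesothelial marker of 6 with enough counts (−3.02), at 2.03 CPM or less in every library. The part of cell composition in the differences was not tested.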

How the data were processed

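RNA from lung biopsies of 9 pigs was sequenced in bulk as directional, paired libraries. The deposited table holds raw counts per Ensembl gene on Sscrofa11.1, made by the authors with bcl2fastq 2.2.18.12, cutadapt 1.15, TopHat2 2.0.14 and featureCounts of Subread 1.6.0, as named in the submitters' processing notes, which also name DESeq2 1.18.1; strand and multi-mapping settings are not given in the sources used here, so genes with near copies (IL1B, CCL4, CCL3L1, MT1A) are uncertain. Each sample's total lies in 14650700 to 67522703 counts. Nothing states separate cultures beyond the pig, which is the replicate.

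Symbols came from the table for 16719 of 31908 genes. Genes passing edgeR's expression filter were tested by edgeR 4.0.16 (limma 3.58.1, R 4.3.3): quasi-likelihood, TMM, interaction of group and time with pig as block, Benjamini-Hochberg adjusted p, alpha 0.05. Each pig's own 0h and 12h libraries come from 1 animal, which is the source of the pairing; their deviations from the group means correlated by 0.351 to 0.669 in GS and by −0.225 (pig 2), 0.434, −0.198 (pig 4) and 0.203 in PD. Levels were compared between groups at 0h and at 12h without the block. Changes per pig are log2 CPM with a prior count of 0.5, and 3 counts, taken as the floor, correspond to no more than 0.0905 CPM in any GS library and 0.34 CPM in any PD library. These floors and the intervals cover counting error only. Every pair of replicate libraries differed beyond sampling noise.

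Alternatives were DESeq2 1.42.0, an exact Wilcoxon test of rlog changes, other size factors, no filter, equal depth, removal of the length and GC trend, and each pig left out. Removal of that trend was planned only for the test of the difference in change with all pigs. Its other uses, and the fit without PD pigs 2 and 4, were added after seeing the data. Scripts were tested on simulated data. Named genes were a set drawn from genes and cytokines the study discusses (IL24 was not among the genes tested), 10 in each direction by smallest p among genes without overlap, the 2 leading members of each list, and the extremes of the share at 0h; other genes were chosen after their values were seen. The planned adjustment over that set alone is not given. The members and the 25 pathway and 15 marker lists were chosen with earlier results of these data known. Promoters are from RefSeq (Sscrofa11.1). Python 3.11.15, pandas 2.3.3, scipy 1.17.1 and matplotlib 3.10.9 were used.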

Additional observations from a re-analysis of the deposited data

Results flagged for a closer look

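Of 148 groups of changes (74 genes in GS and in PD), 6 held a pig whose gap to the nearest other pig exceeded Dixon's 95% limit (4.05%), and with library measures 9 of 168 did; chance gives about 1 in 20. The changes were 4.11 log2 for TNF in PD pig 5, 2.08 for CD40 in PD pig 4, −2.14 for RNF128 in PD pig 2, −2.16 for GAB3 in PD pig 4, 2.74 for CCL3L1 in GS pig 55 and 2.91 for HBB in PD pig 2. HBB went down in the other 3 PD lungs.

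In the library measures, the PD pig 2 library at 12h lay apart by its long noncoding RNA share (2.7%) and its SFTPC share (5.38%), and the PD pig 4 library at 0h by its mean correlation of 0.882 with the other PD libraries of that time.

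Among the same 74 genes, some of them chosen for a lack of overlap, 4 changed upward in every PD pig and downward in every GS pig. Over all genes tested, the changes did not overlap for 2.16%. The differences were 2.44 log2 for BATF2, 2.01 for ANKRD66, 2.8 for ARHGAP20 and 1.5 for DHX58, and the edgeR test of the difference gave adjusted p of 0.609 for BATF2 and 1 for the other 3. DESeq2 called BATF2 (adjusted p 2.76e-05), ANKRD66 (0.00309) and ARHGAP20 (0.0114) and did not call DHX58.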

How the results depend on the processing

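Against 0 genes for the difference in change, DESeq2 called 21, the fit without PD pig 2 and with the length and GC trend removed called 12, and leaving out 1 pig at a time gave 0 to 4, with 4 only without PD pig 2. The fit with no replicate block gave 0 called genes and 748 at an unadjusted p under 0.05, so pairing by pig changed no call. An exact Wilcoxon test of rlog changes gave 0, with 681 unadjusted. Without PD pigs 2 and 4 the count was 0.

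Within GS (1300), DESeq2 called 3331 and the fit with the trend removed 2789; leaving out 1 pig gave 3 (without GS pig 55), 7 (GS pig 17), 10 (GS pig 44), 371 (GS pig 77), 797 (PD pig 3), 787 (PD pig 5), 2696 (PD pig 4) and 3722 (PD pig 2). Within PD (2636), they called 4770 and 4454, and leaving out 1 pig gave 542 (PD pig 5) to 6660 (PD pig 2), with 800 without PD pig 3. Genes called at 12h (3297) ranged from 1947 (without GS pig 44) to 4934 (without PD pig 2), with 2067, 2004 and 2102 without GS pig 55, GS pig 77 and PD pig 5. For the 6h change the count was 0 to 1. Genes without overlap (378) ranged from 413 to 3048 when 1 pig was left out: 597 without GS pig 9, 757, 958 and 646 without PD pigs 3, 4 and 5.

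The percent with the greater part at 0h was 49.5 for higher genes, 39.4 on the rlog scale and 45.9 to 62.4 without 1 pig, the highest without PD pig 2. For lower genes it was 30.6, 48.3 on the rlog scale, 40.6 at equal depth and 25.9 to 50.7 without 1 pig: 40.3 without GS pig 77, 45.4 without PD pig 4, 50.7 without PD pig 2. Leaving out 1 pig moved IL10 between −0.61 and 0.34 and CXCL8 between −0.43 and 1.16; IL10 turned to 0.05, 0.03, 0.34 and 0.10 without GS pig 55, GS pig 77, PD pig 2 and PD pig 3, and CXCL8 to −0.19, −0.22 and −0.43 without GS pig 9, PD pig 4 and PD pig 5. Among the other alternatives of that set of 10 inflammation genes, 120 values kept their direction and side of the threshold, and 13 kept the direction but not an exact permutation p under 0.05 when 1 pig was left out (p 0.0536 to 0.0714): IL1B with differences of 3.11 to 3.94, CIITA of 0.93 to 0.94, IRF1 of 1.53 to 1.58, and CCL4 of 2.75 without PD pig 5. Leaving out 1 pig leaves fewer splits, so the smallest possible p is above 0.00794 and the p-values move in larger steps. The cause of these shifts was not tested.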
